A study of Homo sapiens with 6 samples.

Results

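The mRNAs of 48 human genes for chromatin remodelers and histone-modifying enzymes were followed in RNA that had been incubated with the ribonuclease IRE1 and in RNA that had not. The genes were listed by name, by family and complex: 8 CHD ATPases, 16 subunits of the SWI/SNF complexes, 7 genes of the ISWI group, 3 of the INO80 group, ATRX, 9 histone acetyltransferases and 4 histone lysine methyltransferases. The list was headed as remodelers and acetyltransferases, and ASH1L, NSD1, NSD3 and SETD2 encode neither. All 48 were among the 57905 genes counted, and all 48 were among the 14398 genes that passed the filter on low counts.

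Each reaction held 5 μg of total RNA from H929, an established human multiple myeloma cell line. The IRE1-treated group received 2 μg of recombinant IRE1, a human fragment from amino acid 467 to 977, the control group received no enzyme, and both were incubated at 37 °C for 1 h. Heating at 95 °C for 5 min ended the reaction, poly(A)-containing RNA was then purified, and each of the 3 IRE1-treated and 3 control samples gave 1 library. The RNA was extracted before the enzyme was added, so the comparison measures RNA in a tube and not the response of a living cell. The submitters describe the RNA as biological replicates of 1 cell line, and the p-values measure only the spread between these samples.

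The libraries held 19615715 to 25678499 counts on genes. All 9 plasma cell markers listed for the check of the label (SDC1, TNFRSF17, IRF4, PRDM1, XBP1, MZB1, JCHAIN, SLAMF7 and CD38) had at least 408 counts in every library. Of the markers of other cell types, CD3E carried nearly all of the T cell sum (891 to 1065 counts in the controls and 898 to 1005 after IRE1), and CD3D and CD2 were at or near 0. The myeloid and stromal markers and the hemoglobin genes HBB and HBA1 held 13 counts or fewer each, with LUM at 0. BLOC1S1, a substrate of IRE1 known before the study, had 606, 582 and 649 normalized counts in the controls and 275, 229.9 and 211 in the IRE1-treated libraries, a log2 fold change of -1.36 (SE 0.095, adjusted p = 1.25e-06). XBP1, the mRNA that IRE1 splices, had 60995, 58415 and 59795 against 57255, 56745 and 54059.6, a log2 fold change of -0.09 (SE 0.0436, adjusted p = 0.143). The paper reports fewer XBP1 reads after IRE1 in exons upstream of the cleavage sites and similar numbers downstream. The gene count used here adds both parts, so it does not measure how much XBP1 was cut. All IRE1-treated libraries were below all controls for XBP1, and it passed the threshold when scaled by library size alone (-0.17, adjusted p = 0.00371) and after removal of a trend with transcript length and GC content (-0.18, adjusted p = 0.00188). A normalized count here is a count divided by library size and TMM factor and multiplied by the mean library size. All fold changes are IRE1-treated against control on the log2 scale, and p-values are from edgeR's quasi-likelihood test, adjusted with Benjamini-Hochberg over all genes tested, with a threshold of 0.05.

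Chromatin remodelers use the energy of ATP to slide, eject or exchange nucleosomes, and histone acetyltransferases add acetyl groups to histone tails, a mark of active promoters and enhancers. The catalytic subunits of both kinds are large proteins that work in multi-subunit complexes, and several of them are frequent targets of mutation in cancers of B cells. IRE1 is a sensor of stress in the endoplasmic reticulum with a ribonuclease domain that splices XBP1 mRNA and cuts other mRNAs, a process called regulated IRE1-dependent decay. The cut is known to fall after the guanine of a CUGCAG-like sequence in the loop of a small hairpin.

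The letters CUGCAG, searched on the transcript strand and identical to their own reverse complement, occurred in the reference transcript of 45 of the 48 genes (93.75%). They occurred in 84.9% of the 12207 tested coding genes and in 97.21% of the tested coding genes with transcripts of at least 6000 bases. No match was found in CHD1, KAT8 and SMARCB1. With 30 bases around each match folded, 37 of the 48 genes (77.08%) had at least 1 match whose first guanine was unpaired in a hairpin loop closed by at least 3 stacked pairs, against 54.26% of the tested coding genes and 77.22% of those of at least 6000 bases. With 60 bases folded, 17 members (35.42%) had such a match, against 33.69% of the tested coding genes and 54.26% of those of at least 6000 bases. Members called lower and members not called had such matches at similar rates. With 30 bases folded they were 22 of the 27 called lower (81.48%) and 14 of the 18 not past the threshold (77.78%), beside 1 of the 3 called higher. With 60 bases folded the shares were 33.33% of the lower members and 38.89% of those not past the threshold. The sites below are those of 8 genes called lower, with low fold changes, that held such a match in coding sequence within 1 exon. They are shown as candidate sites only, and not every gene in this range is listed. Each is the 30-base window of lowest free energy among the matches of its gene in a loop, in coding sequence and within 1 exon. The windows are written 5′ to 3′ from GRCh37, with the CUGCAG in capitals.
KAT6B: uaauuucuaaugCUGCAGugucugaagaag
ASH1L: guggauagucugCUGCAGcggaugguacaa
EP300: ugcuaccaaaugCUGCAGgcaugguuccag
CHD6: aggggagcucugCUGCAGugaggcaggaca
CHD9: cauuaaauacagCUGCAGcugccaacccau
CREBBP: aagccaaaacgaCUGCAGgagugguacaaa
ARID2: caacaaugcuggCUGCAGcgcaacaauggu
BAZ2A: agccugggggucCUGCAGgagggacuccug

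All 8 sites were in coding exons. The KAT6B site was in exon 15 of 18 (chr10:76780994-76781023, plus strand), the EP300 site in exon 10 of 31 (chr22:41537143-41537172, plus strand) and the CREBBP site in exon 27 of 31 (chr16:3786699-3786728, minus strand). The ASH1L site was in exon 5 of 28 (chr1:155408777-155408806, minus strand) and the BAZ2A site in exon 14 of 29 (chr12:56998950-56998979, minus strand). The CHD6 site was in exon 31 of 37 (chr20:40049885-40049914, minus strand), the CHD9 site in exon 39 of 39 (chr16:53358455-53358484, plus strand) and the ARID2 site in exon 15 of 21 (chr12:46246538-46246567, plus strand). The predicted loops had 3 to 7 bases, and the predicted free energies ran from -2.1 kcal/mol for KAT6B to -14.8 kcal/mol for BAZ2A. With 60 bases folded, the ASH1L and BAZ2A sites were still in a hairpin loop and the other 6 were not. A gene count adds reads on both sides of a site, so the counts do not show whether any of these windows was cut.

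Most of the 48 mRNAs were lower after IRE1. The test called 27 of them lower (56.25% of the 48, where 12.4% of all tested genes were called lower) and 3 of them higher (BRD7, KAT5 and SMARCB1, where 10.3% of all tested genes were called higher). The other 18 did not pass the test. The genes were listed with earlier results of these data known. Members also have longer transcripts than most genes. Among all tested coding genes, 40.4% of those from 6000 to 9000 bases and 46.6% of those of 9000 or more were called lower. Every IRE1-treated library was below every control for 29 of the 48 genes, against 20.0% of all tested genes, and every IRE1-treated library was above every control for 5, against 19.1%. The median log2 fold change of the 48 was -0.24, with an interquartile range from -0.40 to -0.03 and single values from -0.61 (ATRX) to 0.37 (SMARCA1), and the median of all tested genes was 0.0045. Taken library by library against the mean of the controls, the median of the 48 was -0.28, -0.29 and -0.17 in IRE1-treated replicates 1, 2 and 3. Scaled by library size alone, 32 genes were called lower, with CHD4, SMARCA4, BAZ1A, BAZ1B and SETD2 added, and BRD7, KAT5 and SMARCB1 no longer passed. DESeq2 called 26 lower and 3 higher. Without control replicate 1, control replicate 2 or IRE1-treated replicate 2, 23, 24 and 25 of the 48 were called lower, beside 972, 992 and 1089 of all tested genes in place of 1781. In these fits 709, 638 and 893 of all tested genes were called higher in place of 1489, and without control replicate 3 there were 947.

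In the annotation 13 of the 48 genes overlap the exons of another gene on their own strand and 27 those of a gene on the opposite strand, 16 share none, and 6 have pseudogenes named after them (BRD7, SMARCE1, BRD9, BPTF, EP400 and KAT7). The strand setting of the counting is not given in the sources used here, so reads of such neighbours may be part of these counts. Reads that HTSeq held to be ambiguous, 3.9 to 4.2% in each library, are in no gene's count, so members may also have lost reads.

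**Figure D1:**
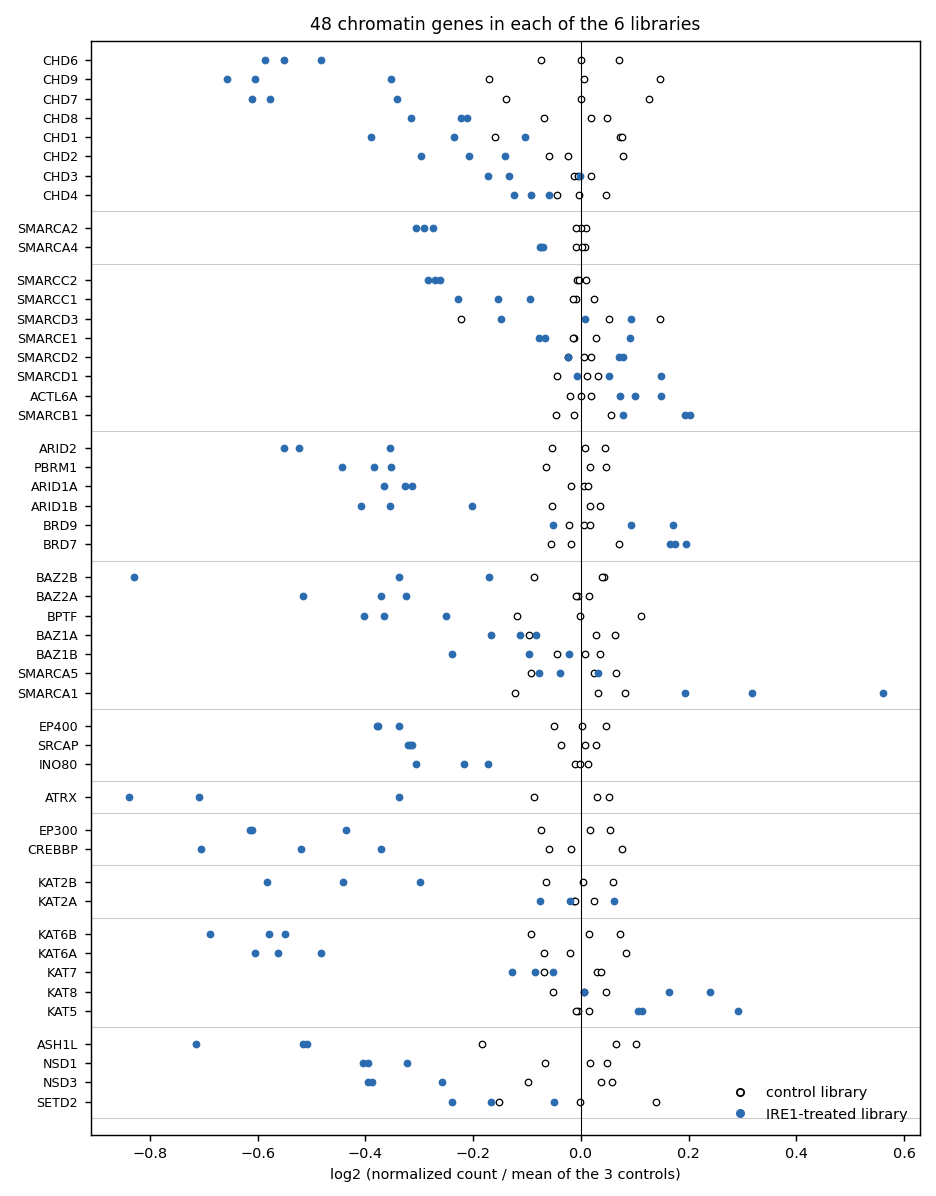
Normalized counts of the 48 genes in each library, as the log2 ratio to the mean of the 3 controls (horizontal axis), with 1 gene a row and lines between the families. Open points are control libraries and filled points are IRE1-treated libraries. For 29 genes all filled points lie to the left of all open points, and for 5 genes (SMARCB1, ACTL6A, BRD7, SMARCA1 and KAT5) all lie to the right.

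Transcript length moved with the fold change among the 48 genes and among all genes. The reference transcript of the median member had 8068 bases, a length reached by 7.95% of tested coding genes, whose median was 3251 bases. Spearman's correlation between length and fold change was -0.77 across the 48 genes and -0.63 across the 12207 tested coding genes, given as descriptions of points that share the same 6 libraries. Of the 7 members below 3000 bases, 2 were called higher and 5 did not pass, where 22.0% of all tested coding genes of that length were called higher and 1.77% lower. From 3000 to 6000 bases, 3 of 10 members were called lower (15.7% of all). From 6000 to 9000 bases, 11 of 17 members were called lower (40.4%), and at 9000 bases or more, 13 of 14 (46.6%). The median fold change in this longest class was -0.44 for the members and -0.28 for all coding genes. Whether length itself has a part in the lower counts was not tested.

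A second fit therefore took a smooth trend with transcript length and GC content out of each library before the test. In this fit 12 of the 48 genes were lower (4.60% of all genes tested were called lower in it) and 2 were higher, BRD7 and SMARCA5 (6.82% were called higher). The median of the 48 moved to -0.04, and Spearman's correlation of their length with the fold change in this fit was -0.47. All 12 were among the 27 called lower with TMM alone: CHD6, SMARCA2, SMARCC2, ARID2, BAZ2A, ATRX, CREBBP, EP300, KAT2B, KAT6A, KAT6B and ASH1L. Except for SMARCA2, each of these passed the threshold with a lower count under every alternative that was run, including every fit that left out 1 library. Below, the value of the second fit is called the trend-removed fold change. It rests on the length of the reference transcript. Which transcript forms, and how much untranslated sequence, were present in H929 was not measured.

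**Figure D2:**
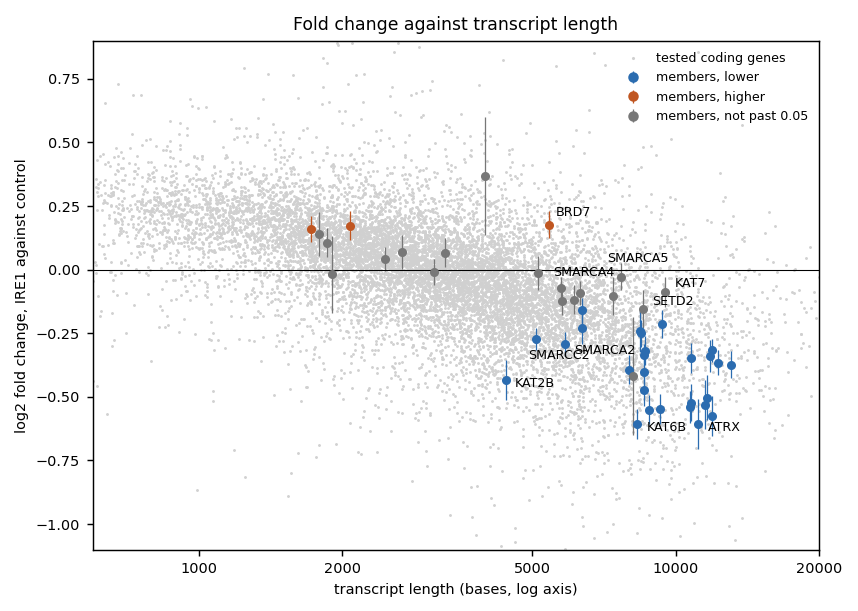
Log2 fold change of each tested coding gene (grey dots) and of the 48 members (large points, with bars of 1 standard error) against the length of the reference transcript on a log axis. Blue points are members called lower, orange points members called higher and dark grey points members that did not pass. The axes leave out the few genes beyond them, and the cloud falls from left to right, with KAT2B, SMARCA2 and SMARCC2 lower and BRD7 higher than most genes near their length.

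The acetyltransferases CBP and p300 are paralogous coactivators that acetylate histone H3 at enhancers, and both of their mRNAs were lower. CREBBP, which encodes CBP, had 1606, 1764 and 1652 normalized counts in the controls and 1026, 1167 and 1294 in the IRE1-treated libraries, a log2 fold change of -0.52 (SE 0.0717, adjusted p = 0.000223). EP300 had 3281, 3199 and 3004 against 2065, 2070.1 and 2338, a log2 fold change of -0.55 (SE 0.0576, adjusted p = 3.8e-05). All 3 IRE1-treated libraries were below all controls for both genes, and IRE1-treated replicate 3 was the closest to the controls in both. The trend-removed fold changes were -0.27 (adjusted p = 0.00782) and -0.31 (adjusted p = 0.00056). The log2 ratio of CREBBP over EP300 within a library overlapped between the groups, with -0.92 ± 0.0982 (SD, n = 3) in control libraries and -0.90 ± 0.0987 (SD, n = 3) after IRE1.

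Of the MYST acetyltransferases, the large paralogs KAT6A (MOZ) and KAT6B (MORF), which acetylate histone H3, fell, and KAT5, KAT7 and KAT8 were not called lower. KAT6B had 1872, 1798 and 1669 normalized counts in the controls and 1191, 1104 and 1216 in the IRE1-treated libraries, a log2 fold change of -0.61 (SE 0.0592, adjusted p = 3.06e-05). KAT6A had 1676, 1559 and 1508 against 1070.4, 1039.8 and 1132, a log2 fold change of -0.55 (SE 0.0586, adjusted p = 4.05e-05). The groups were far apart for both, and the highest IRE1-treated library stood well below the lowest control. After removal of the trend they remained lower, with -0.36 (adjusted p = 0.000565) for KAT6B and -0.29 (adjusted p = 0.00167) for KAT6A.

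KAT5, which encodes TIP60, an acetyltransferase of histone H4 with roles in DNA repair, had 1362, 1343 and 1338 normalized counts in the controls and 1451, 1650.4 and 1458 after IRE1, a log2 fold change of 0.17 (SE 0.0585, adjusted p = 0.0432). All IRE1-treated libraries were above all controls, with replicate 2 the highest. The call was lost without any 1 of the 3 controls or without IRE1-treated replicate 2, and the trend-removed fold change was 0.10 (adjusted p = 0.239). KAT7 (HBO1) had a fold change of -0.09 (adjusted p = 0.33) and a trend-removed value of 0.18 (adjusted p = 0.065). Its reference transcript has 9514 bases, of which 1911 are coding. KAT8 (MOF), which acetylates histone H4, had 0.14 (adjusted p = 0.26), and its groups overlapped.

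GCN5 and PCAF are paralogs that serve as the catalytic subunit of the SAGA and ATAC coactivators. KAT2B, which encodes PCAF, had 652, 628 and 599 normalized counts in the controls and 418, 461 and 509 after IRE1, a log2 fold change of -0.43 (SE 0.0795, adjusted p = 0.00147). KAT2A, which encodes GCN5, had 1881, 1885 and 1931 against 1802, 1980.5 and 1872, a log2 fold change of -0.01 (SE 0.0514, adjusted p = 0.912). The first pair of groups did not overlap and the second did. With a transcript of 4410 bases, KAT2B was the shortest of the members called lower, and its trend-removed fold change was -0.31 (adjusted p = 0.00561). Within a library, the log2 ratio of KAT2A over KAT2B was 1.60 ± 0.0817 (SD, n = 3) in control libraries and 2.03 ± 0.131 (SD, n = 3) after IRE1, a difference of 0.43 with no overlap between the groups. By the two-sided exact permutation test this gave p = 0.1, the smallest that 3 against 3 samples can give, and 0.3 adjusted over the 15 pairs compared.

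Among the CHD ATPases, which carry paired chromodomains, 6 of 8 were lower, and CHD3 and CHD4 did not pass. CHD6 had 1079, 1133 and 1025 normalized counts in the controls and 718, 736 and 772 after IRE1, a log2 fold change of -0.54 (SE 0.062, adjusted p = 6.7e-05). CHD9 had 625, 567 and 501 against 358, 371 and 442, a log2 fold change of -0.53 (SE 0.0967, adjusted p = 0.00143). CHD7, the gene of CHARGE syndrome, had 670.1, 614 and 558 against 402, 411 and 485, a log2 fold change of -0.50 (SE 0.0888, adjusted p = 0.00117). The groups were separate for these 3 genes, and IRE1-treated replicate 3 was the highest of its group for each of them. CHD6 was also lower in the trend-removed fit, at -0.26 (adjusted p = 0.0045), whereas CHD7 and CHD9 gave -0.21 (adjusted p = 0.0692) and -0.20 (adjusted p = 0.091).

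CHD8, a regulator of Wnt target genes, had 1954, 1913 and 1801 normalized counts in the controls and 1632, 1519 and 1619 after IRE1, a log2 fold change of -0.25 (SE 0.0534, adjusted p = 0.00383). The log2 ratio of CHD7 over CHD8 within a library was -1.62 ± 0.0743 (SD, n = 3) in control libraries and -1.88 ± 0.140 (SD, n = 3) after IRE1, without overlap (exact permutation p = 0.1, the smallest possible here, and 0.3 adjusted over 15 pairs). The transcripts of CHD7 and CHD8 have 11606 and 8467 bases, and the ratio was not adjusted for length. CHD2 had 2577, 2401 and 2342 against 1985, 2113 and 2212, a log2 fold change of -0.21 (SE 0.0554, adjusted p = 0.0119) that did not pass without control replicate 1. CHD1, which binds methylated histone H3 at active genes, had 802, 804 and 683 against 648, 582 and 709.5, a log2 fold change of -0.24 (SE 0.0829, adjusted p = 0.0484). This was the 1 member called lower whose groups overlapped, and its call was lost without control replicate 1, control replicate 2 or IRE1-treated replicate 2, and with DESeq2 (adjusted p = 0.051), upper quartile scaling (0.0515) and limma on the authors' CPM (0.11). The trend-removed fold changes of CHD1, CHD2 and CHD8 were 0.04, 0.05 and -0.02, none past the threshold.

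CHD3 and CHD4 are the ATPases of the NuRD complex, which couples remodeling to histone deacetylation. CHD4 had 6353, 6135 and 5968 normalized counts in the controls and 5901, 5771 and 5644 after IRE1, a log2 fold change of -0.09 (SE 0.0461, adjusted p = 0.168). CHD3 had 478, 481 and 489 against 482, 428 and 440.0, a log2 fold change of -0.10 (SE 0.0751, adjusted p = 0.359). Neither passed the threshold, although no IRE1-treated library reached the lowest control for CHD4. Their log2 ratio was -3.67 ± 0.0607 (SD, n = 3) in control libraries and -3.68 ± 0.0700 (SD, n = 3) after IRE1.

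The SWI/SNF complexes contain 1 of 2 mutually exclusive ATPases, BRM (SMARCA2) or BRG1 (SMARCA4). SMARCA2 was called lower and SMARCA4 was not, although with library size alone SMARCA4 was also lower (-0.15, adjusted p = 0.017). SMARCA2 had 2208, 2192 and 2178 normalized counts in the controls and 1791, 1773 and 1813 after IRE1, a log2 fold change of -0.29 (SE 0.0472, adjusted p = 0.000663). SMARCA4 had 8630.5, 8527 and 8602 against 8145, 8158 and 8182, a log2 fold change of -0.07 (SE 0.0428, adjusted p = 0.242). Both genes were measured with little spread, and no IRE1-treated library reached a control in either. Their transcripts have similar lengths, 5867 and 5745 bases, and the trend-removed values were -0.14 (adjusted p = 0.045) and 0.06 (adjusted p = 0.373). The log2 ratio of SMARCA2 over SMARCA4 was -1.97 ± 0.0112 (SD, n = 3) in control libraries and -2.19 ± 0.0143 (SD, n = 3) after IRE1, a difference of -0.22 (exact permutation p = 0.1, the smallest possible here, and 0.3 adjusted over 15 pairs). SMARCA4 held 12 CUGCAG matches, 9 of them in a predicted loop, and SMARCA2 held 7 with 3 in a loop. With 60 bases folded each had 1 match in a loop.

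Of the 8 core and shared SWI/SNF subunits, SMARCC1 and SMARCC2 were lower and SMARCB1 was higher, and the other 5 did not pass. SMARCC1 and SMARCC2 (BAF155 and BAF170) form the dimer on which the complex is built. SMARCC2 had 3535, 3575 and 3544 normalized counts in the controls and 2963, 2942 and 2917 after IRE1, a log2 fold change of -0.27 (SE 0.0447, adjusted p = 0.000724), and a trend-removed value of -0.16 (adjusted p = 0.0122). SMARCC1 had 2991, 2976 and 3058 against 2816, 2568 and 2703, a log2 fold change of -0.16 (SE 0.0493, adjusted p = 0.0302). Both were lower in every IRE1-treated library, but the SMARCC1 call was lost without any 1 control or without IRE1-treated replicate 2, and its trend-removed value was 0.02. SMARCC2 shares exons in the annotation with MYL6 on the opposite strand and with an unnamed gene on its own strand. The log2 ratio of SMARCC1 over SMARCC2 was -0.24 ± 0.0259 (SD, n = 3) in control libraries and -0.13 ± 0.0631 (SD, n = 3) after IRE1, with no overlap (exact permutation p = 0.1, the smallest possible here, and 0.3 adjusted over 15 pairs).

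SMARCB1, the INI1 tumor suppressor, had 2673, 2611 and 2801 normalized counts in the controls and 3102, 3079 and 2846 after IRE1, a log2 fold change of 0.16 (SE 0.0515, adjusted p = 0.0364). No IRE1-treated library was below a control, but the call was lost without any 1 control or without IRE1-treated replicate 2, and the trend-removed value was 0.06 (adjusted p = 0.401). SMARCB1 shares exons with DERL3 on the opposite strand. ACTL6A, the actin-related subunit, had 971, 984 and 957 against 1076, 1041 and 1021, a log2 fold change of 0.11 (SE 0.0557, adjusted p = 0.188). The BAF60 paralogs SMARCD1, SMARCD2 and SMARCD3 had fold changes of 0.07, 0.04 and -0.02 and SMARCE1 of -0.01, none past the threshold. SMARCD1, SMARCD2, SMARCD3, SMARCB1 and ACTL6A have transcripts of 1717 to 3283 bases.

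The subunits that set apart the BAF, PBAF and ncBAF forms of SWI/SNF were lower in 4 of 6 genes, and BRD7 was higher. ARID2, the large DNA-binding subunit of PBAF, had 1273, 1241 and 1189.6 normalized counts in the controls and 858, 843 and 965 after IRE1, a log2 fold change of -0.47 (SE 0.0635, adjusted p = 0.000193) with a trend-removed value of -0.20 (adjusted p = 0.0141). ARID1A, the BAF subunit often mutated in cancer, had 4805, 4833 and 4728 against 3819, 3716 and 3851, a log2 fold change of -0.34 (SE 0.0448, adjusted p = 0.000187). Its paralog ARID1B had 2074, 2048 and 1949.7 against 1525, 1583 and 1758, a log2 fold change of -0.32 (SE 0.0581, adjusted p = 0.00145). No IRE1-treated library of these genes reached a control. PBRM1, the polybromo subunit of PBAF, fell by 0.39 on the log2 scale (adjusted p = 0.000359). After removal of the trend ARID1A, ARID1B and PBRM1 gave -0.12, -0.10 and -0.14, none past the threshold (adjusted p = 0.0713, 0.194 and 0.0836).

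BRD7, the bromodomain subunit of PBAF, was called higher in both fits. It had 1353, 1272 and 1239 normalized counts in the controls and 1444, 1454 and 1474 after IRE1, a log2 fold change of 0.18 (SE 0.0537, adjusted p = 0.0265). All IRE1-treated libraries were close together and above all controls. With a reference transcript of 5424 bases, of which 2076 are coding, its trend-removed fold change was larger, at 0.34 (adjusted p = 0.000565). The call of the TMM-scaled counts was lost without control replicate 2, control replicate 3 or IRE1-treated replicate 2. Because 7 pseudogenes carry the name of BRD7 and ADCY7 shares its exons on the opposite strand, reads of these genes may be part of its count. Its own reads may also have been left out as ambiguous. BRD9, the bromodomain subunit of ncBAF, had 776, 782 and 760.2 against 869, 824 and 745, a log2 fold change of 0.07 (SE 0.067, adjusted p = 0.495), with overlap between the groups.

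In the ISWI group, whose ATPases space nucleosomes evenly with the help of large BAZ and BPTF partners, 2 of 7 genes were lower. BAZ2A, which encodes TIP5 of the complex that silences ribosomal DNA, had 4065, 4127 and 4057 normalized counts in the controls and 2854, 3157 and 3261 after IRE1, a log2 fold change of -0.40 (SE 0.0529, adjusted p = 0.000168) with a trend-removed value of -0.18 (adjusted p = 0.0107). BPTF, the reader subunit of the NURF complex, fell by 0.34 on the log2 scale (adjusted p = 0.00176), and its trend-removed value was -0.03. Both genes were lower in every IRE1-treated library. BAZ1A and BAZ1B had fold changes of -0.12 and -0.12, neither past the threshold.

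SMARCA5, the main ISWI ATPase (SNF2H), had 2595, 2522 and 2325 normalized counts in the controls and 2350.3, 2414 and 2536 after IRE1, a log2 fold change of -0.03 (SE 0.054, adjusted p = 0.766). The groups overlapped. Its reference transcript has 7684 bases, of which 3156 are coding. This length lies in the class in which 40.4% of tested coding genes were called lower, and the trend-removed fold change was 0.23 (adjusted p = 0.00271). SMARCA1 (SNF2L) had 27.8, 25.0 and 28.8 against 31.1, 40.1 and 33.9, a log2 fold change of 0.37 (SE 0.232, adjusted p = 0.282), and BAZ2B had 40.5, 40.4 and 37.0 against 31.1, 22.1 and 34.9, a log2 fold change of -0.42 (SE 0.233, adjusted p = 0.219). With so few counts neither passed the threshold although their groups did not overlap. The log2 ratio of SMARCA1 over SMARCA5 was -6.51 ± 0.161 (SD, n = 3) in control libraries and -6.13 ± 0.184 (SD, n = 3) after IRE1, also without overlap (exact permutation p = 0.1, the smallest possible here, and 0.3 adjusted over 15 pairs).

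The 3 ATPases of the INO80 group, which exchange the histone variant H2A.Z, were all lower. EP400 had 1814, 1870.1 and 1748 normalized counts in the controls and 1433, 1394 and 1393 after IRE1, a log2 fold change of -0.36 (SE 0.0509, adjusted p = 0.00025). SRCAP had 3773, 3719 and 3606 against 2969, 2977 and 2963, a log2 fold change of -0.32 (SE 0.0455, adjusted p = 0.000304). INO80 had 843, 849 and 858 against 687, 731 and 754, a log2 fold change of -0.23 (SE 0.0616, adjusted p = 0.0144). No IRE1-treated library reached a control for any of the 3, but the INO80 call was lost without any 1 control. In the trend-removed fit the values were -0.09, -0.05 and -0.06 (adjusted p = 0.293, 0.53 and 0.527).

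ATRX, which deposits the histone variant H3.3 with DAXX at heterochromatin and telomeres, had the lowest fold change of the 48 genes. It had 786, 798 and 724 normalized counts in the controls and 429.8, 470.3 and 609 after IRE1, a log2 fold change of -0.61 (SE 0.0993, adjusted p = 0.000704) and a trend-removed value of -0.28 (adjusted p = 0.0148). Replicate 3 was again the IRE1-treated library nearest to the controls, and it still lay below them. Its transcript of 11165 bases held a single CUGCAG match, which was not in a predicted hairpin loop. Among the other genes called lower in both fits, KAT2B also had no match in a loop, and with 60 bases folded the same was true of KAT6A, KAT6B, CHD6 and CREBBP as well.

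Of the histone lysine methyltransferases, 3 of 4 were lower. ASH1L, which methylates histone H3 at lysine 36 in active genes, had 1327, 1362 and 1117 normalized counts in the controls and 773, 887 and 892 after IRE1, a log2 fold change of -0.58 (SE 0.0777, adjusted p = 0.000204) with a trend-removed value of -0.26 (adjusted p = 0.011). NSD1 had 1986, 1943 and 1835 against 1452, 1462 and 1535, a log2 fold change of -0.37 (SE 0.0524, adjusted p = 0.000262), and NSD3 had 1885, 1859.5 and 1693 against 1378, 1385 and 1516, a log2 fold change of -0.35 (SE 0.0587, adjusted p = 0.000897). The groups were separate for all 3 genes. In the trend-removed fit NSD1 and NSD3 were at -0.06 and -0.04, neither past the threshold. SETD2, the enzyme of lysine 36 trimethylation, had 1212, 1098 and 990.3 against 1062, 932 and 979.9, a log2 fold change of -0.15 (SE 0.0739, adjusted p = 0.151), and its groups overlapped. The related NSD2, the gene joined to the immunoglobulin locus by the t(4;14) translocation of myeloma that H929 carries, is not among the 48 and had 18929, 18402 and 18347 against 16362, 17432 and 17438, a log2 fold change of -0.12 (SE 0.0453, adjusted p = 0.0677).

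**Figure D3:**
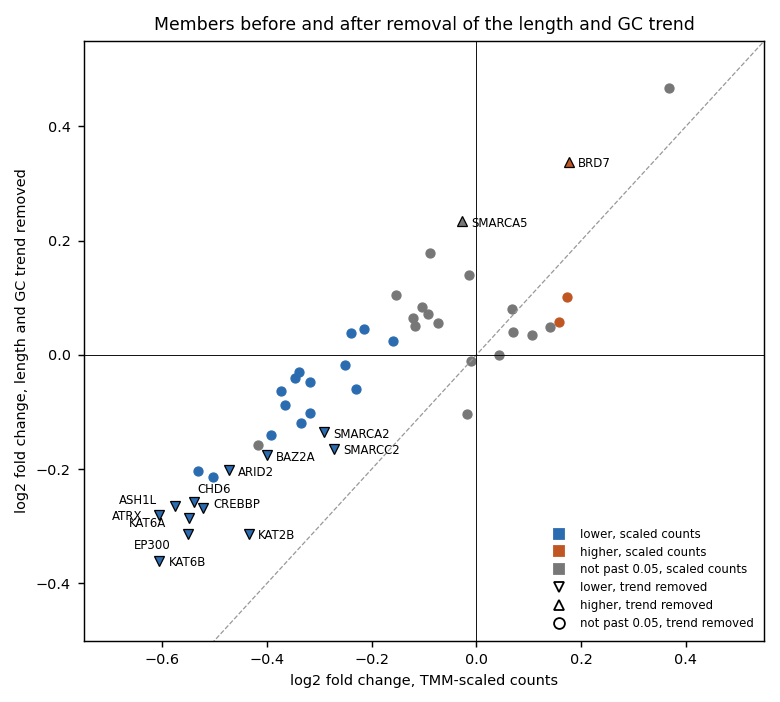
Log2 fold change of the 48 genes with TMM-scaled counts (horizontal axis) and after removal of the length and GC trend (vertical axis), with the line of equality dashed. Colour gives the call on scaled counts and shape the call after removal of the trend. The 12 genes lower in both fits are the named triangles pointing down, BRD7 is higher in both and SMARCA5 is higher on the vertical axis alone.

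The 15 pairs of related genes gave ratios within each library, which do not depend on how libraries are scaled to each other. They were not adjusted for transcript length, which differs between the genes of some pairs. The groups did not overlap for 5 pairs: SMARCA2 over SMARCA4, CHD7 over CHD8, SMARCC1 over SMARCC2, KAT2A over KAT2B and SMARCA1 over SMARCA5. The last of these rests on the low counts of SMARCA1. The share of pairs without overlap among other genes was not computed. For single genes, every IRE1-treated library was below every control in 20.0% of all tested genes and above in 19.1%. No pair could pass an adjusted threshold in this design, since the smallest exact p is 0.1. In the other 10 pairs the libraries of the groups overlapped, as with ARID1A over ARID1B at 1.24 ± 0.0328 (SD, n = 3) in control libraries and 1.23 ± 0.0966 (SD, n = 3) after IRE1, on the log2 scale. KAT6A over KAT6B was -0.17 ± 0.0310 (SD, n = 3) and -0.11 ± 0.0353 (SD, n = 3), and NSD1 over NSD3 was 0.08 ± 0.0276 (SD, n = 3) and 0.06 ± 0.0338 (SD, n = 3). BAZ2A over BAZ2B varied most after IRE1, at 6.74 ± 0.360 (SD, n = 3) against 6.70 ± 0.0681 (SD, n = 3) in the controls.

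**Figure D4:**
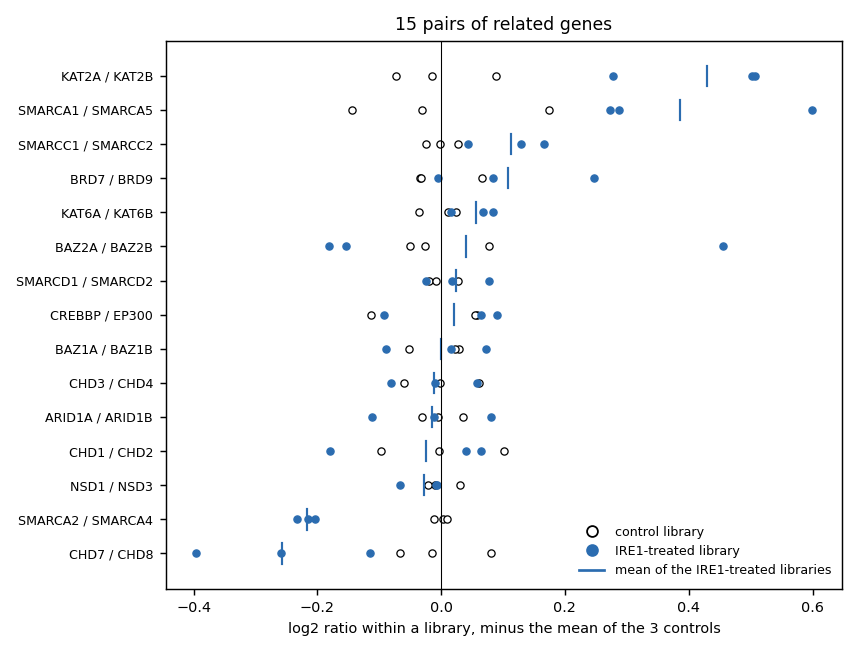
Log2 ratio of the normalized counts of 2 related genes within a library, minus the mean of the 3 controls, for 15 pairs. Open points are control libraries, filled points IRE1-treated libraries and ticks their mean. In 5 pairs the filled and open points do not overlap, with mean shifts from -0.26 (CHD7 over CHD8) to 0.43 (KAT2A over KAT2B).

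Levels in the control RNA, as normalized counts per kilobase of reference transcript, ran from 4.83 for BAZ2B and 6.82 for SMARCA1 to 1495 for SMARCA4 and 1569.6 for SMARCB1. Of the SWI/SNF ATPases, SMARCA4 stood at 1495 per kilobase and SMARCA2 at 374. Among the CHD genes, CHD4 stood at 978 per kilobase and the other 7 between 48.9 (CHD9) and 261 (CHD2). EP300 had 360.1 per kilobase against 155 for CREBBP, and KAT2A had 610 against 142 for KAT2B.

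Beyond the 48 genes, 113 other subunits and relatives were listed, of which 112 were found and 109 were tested. Of these, 23 were lower (21.1%, where 12.4% of all tested genes were called lower) and 10 were higher, a share no larger than the 10.3% of all tested genes called higher. Their median fold change was -0.04. Without control replicate 1, 2 or 3 or IRE1-treated replicate 2, the lower genes numbered 12, 11, 15 and 14 and the higher genes 5, 3, 6 and 5, and without IRE1-treated replicate 3 there were 17 higher genes. The median transcript of these partners had 3883 bases. After removal of the trend, 4 partners were lower (ATXN7, HCFC1, RUVBL1 and TAF5L) and 6 were higher (RBBP4, HDAC2, MBD2, MORF4L1, SUPT7L and ENY2), and neither share exceeded that of all genes in this fit (4.60% lower and 6.82% higher).

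By complex, 10 of 34 partners in the MYST, SAGA and ATAC complexes were called lower (29.4%). Among other SNF2 ATPases and methyltransferases 6 of 18 were called lower (33.3%). The lower calls were 4 of 28 in INO80, SRCAP and TIP60 (14.3%), 2 of 12 in BAF and PBAF (16.7%) and 1 of 10 in NuRD (10.0%). These last shares lie near that of all tested genes, of which 12.4% were called lower and 10.3% higher. The higher calls were 5 of 28 in INO80, SRCAP and TIP60, whose median fold change was 0.09, 2 of 10 in NuRD and 2 of 34 in MYST, SAGA and ATAC. Of the 7 ISWI partners tested, RBBP7 was called higher, a call lost without any 1 control or IRE1-treated replicate 2, and the other 6 did not pass. The lowest without overlap were ATXN7 of SAGA (-0.56, adjusted p = 0.00113), JADE3 (-0.43, adjusted p = 0.0304), TRRAP (-0.41, adjusted p = 0.00042), HCFC1 (-0.39, adjusted p = 0.000168) and SHPRH (-0.38, adjusted p = 0.00592). The JADE3 call was lost without control replicate 1, control replicate 2 or IRE1-treated replicate 2, and the SHPRH call without control replicate 2. ATXN7 had 489, 523 and 509.5 normalized counts in the controls and 326, 295 and 403 after IRE1. Its reference transcript of 2849 bases falls in the class in which 1.77% of tested coding genes were called lower. Of these bases 2835 are coding, so its length class and trend-removed value rest on a transcript with almost no untranslated sequence. THOC7 shares exons with ATXN7 on the opposite strand. TRRAP, the scaffold shared by SAGA and TIP60, had 4605, 4649 and 4133 against 3028, 3548 and 3475. The highest were ENY2 (0.31, adjusted p = 0.00403), HDAC2 (0.29, adjusted p = 0.00353), INO80C (0.28, adjusted p = 0.0491), VPS72 (0.23, adjusted p = 0.00621) and TADA3 (0.21, adjusted p = 0.0265). The INO80C call was lost without any 1 library other than IRE1-treated replicate 3, the TADA3 call without any 1 control or IRE1-treated replicate 1, and both with library size alone (adjusted p = 0.156 and 0.115). HDAC2, the deacetylase of NuRD beside CHD3 and CHD4, had 2498, 2396 and 2356 against 3258, 2781 and 2807, with a trend-removed value of 0.60 (adjusted p = 0.000399). Its reference transcript has 9737 bases, of which 1464 are coding.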

How the data were processed

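RNA-seq was made from 3 IRE1-treated and 3 control samples. The authors trimmed reads with cutadapt 1.12, aligned them to GRCh37 with STAR 2.5.3a and counted them with HTSeq 0.6.1p1, versions as given in the submitters' processing notes. They deposited raw counts per Ensembl gene, and a table of CPM normalized by the authors, used here only in an alternative. The 5 summary lines of HTSeq, which belong to no gene, held 21.4 to 23.2% of counts in each library and were left out.

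Counts were compared with edgeR 4.0.16 (R 4.3.3): filterByExpr, TMM, 1 quasi-likelihood fit of the 6 libraries without covariates and Benjamini-Hochberg adjustment. The filter kept 14398 of 24945 genes with a count. The fit was tested on simulated data of 14398 genes for this comparison, where 91 of 100 genes changed 2-fold and 69 of 100 changed 1.5-fold were recovered and 18 unchanged genes were called. The simulated data held no trend with length or GC content and no change smaller than 1.5-fold. They therefore do not measure how well smaller changes, as most members had, are called. Depth was 19615715 to 25678499 counts per library, and counting error enters the fit. The lowest chi-square per gene between any pair of libraries was 2.21, so no library was a copy.

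In the second fit the dependence of counts on transcript length and GC content was fitted by loess (span 0.5) in each library and removed (14111 genes). Names, lengths and sequences came from GENCODE 44 on GRCh37 (55538 identifiers named), using the coding transcript with the longest coding sequence. This reading of the longest coding transcript was chosen after the annotation was seen, because the longest transcripts of SMARCA2, SMARCB1 and KAT8 hold a short coding sequence. Sites were folded with ViennaRNA 2.7.2. Ratios of related genes were tested with scipy 1.17.1.

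The members, the lists and the pairs were chosen with earlier results of these data known. All members may be named. Full statistics were given to the 12 lowest and up to 8 highest members past the threshold without overlap and with 100 or more normalized counts on average, and to the members of the pairs. Of the partners, the 5 lowest and 5 highest were named, besides NSD2, BLOC1S1 and XBP1. Other partners were named where a count of 6 or fewer is given, after their values were seen. Alternatives were DESeq2 1.42.0, library size, upper quartile scaling, no filter, at least 10 counts in every library, limma 3.58.1 on the authors' CPM (log2 after adding 1), a block for replicate number, removal of the trend, the last 2 together, and each library left out. One listed cell type marker is not reported here.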

Additional observations from a re-analysis of the deposited data

How the results depend on the processing

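The number of members called lower was 27 and stayed between 23 and 32 under every alternative except removal of the length and GC trend (12) and the replicate block with that removal (11). The number called higher, 3, was 0 with library size only, with no filter on low counts, with limma on the authors' CPM and with the replicate block, and 0 to 3 with 1 library left out. BRD7, KAT5 and SMARCB1 were the genes lost. CHD1, CHD2 and SMARCC1 also lost their calls with limma on the authors' CPM (adjusted p = 0.11, 0.0619 and 0.0888). The median of the members was -0.32 with library size only, -0.0355 with the trend removed and -0.0329 with the block as well, and -0.28 to -0.23 with 1 library left out. Members with a CUGCAG match in a loop numbered 17 (35.42%) with 60 bases folded, against 37, and the share of coding genes of at least 6000 bases was 54.26% against 77.22%.

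The partners called lower were 23, and 38 with library size only, 4 with the trend removed, 3 with the block as well and 11 to 28 with 1 library left out. The partners called higher were 10, and 3 with library size only, 3 with limma on the authors' CPM, 6 with the replicate block, 6 with the trend removed, 5 with both and 3 to 17 with 1 library left out. Of all genes, 1781 were called lower, and 649 with the trend removed, 536 with the block as well and 972 to 2221 with 1 library left out. The number called higher was 1489, and 683 with library size only, 781 with limma on the authors' CPM, 962 with the trend removed, 797 with the block as well and 638 to 2091 with 1 library left out.

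The log2 fold change turned positive with the trend removed, and with the replicate block as well, for CHD1 (0.0387, 0.0427), CHD2 (0.0455, 0.0464), CHD3 (0.0844, 0.0858), CHD4 (0.0714, 0.0713), SMARCA4 (0.0557, 0.0557), SMARCC1 (0.0241, 0.0235), SMARCE1 (0.14, 0.14), SMARCA5 (0.23, 0.24), BAZ1A (0.0639, 0.0663), BAZ1B (0.0504, 0.0489), KAT7 (0.18, 0.18) and SETD2 (0.11, 0.11), of which SMARCA5 passed the threshold. SMARCD2 was -0.0016 with both, and with library size only SMARCD1, SMARCD2 and BRD9 were -0.0077, -0.0322 and -0.0056. With 1 library left out, small values changed sign for SMARCD3 (-0.113 to 0.0569), SMARCE1 (-0.0664 to 0.0186), KAT2A (-0.0472 to 0.0228) and SMARCA5 (-0.072 to 0.0064). What moves these values was not tested. The paper's methods name no pairing of samples by replicate number. The deviations of same-numbered libraries correlated at -0.0358, -0.00505 and -0.112, which cannot settle whether they came from a shared preparation. With the replicate block 25 members were called lower. Raw counts of 21 to 48 per library limit BAZ2B and SMARCA1, and DESeq2 gave these genes no adjusted p.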
